A study of Mus musculus with 17 samples.

Results

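The SRF-PDGFRB line was compared with the lines carrying the other 3 SRF fusions, SRF-FOXO1, SRF-ICA1L and SRF-RELA. The groups were taken from the sample titles: 2 libraries of SRF-PDGFRB stood against the 9 libraries of the other fusions (3 each), out of 17 in the series, and each of the other fusions had the same weight in the contrast. All libraries came from C2C12, a mouse myoblast line that can form skeletal muscle fibres in culture, grown in medium with fetal bovine serum, and the lines differ in the construct expressed. The remaining 6 libraries, 3 with the empty pMSCV construct and 3 with SRF, entered the fit and serve below as the level without a fusion. The labels do not say whether a line is 1 clone or a pool, nor whether its replicates are separate cultures, so p-values measure only the spread between these libraries. Polyadenylated RNA was sequenced, library totals ran from 20901442 to 23543734 counts, and 15062 genes were tested. The table holds only genes with 10 counts or more in 3 or more libraries. Genes restricted to the pair of SRF-PDGFRB libraries would therefore be missing from it. Levels are given as CPM, a gene's count scaled to the size of its library, which allows comparison between libraries but not between genes of different length.

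SRF, serum response factor, is a transcription factor that binds the CArG box and drives cytoskeletal and muscle genes as well as the immediate early genes of the growth factor response. Its fusion partners are of different kinds: PDGFRB is a receptor tyrosine kinase at the cell surface, FOXO1 a forkhead transcription factor, RELA a subunit of NF-kappaB, and ICA1L a protein related to the islet cell autoantigen ICA1. Much of what follows concerns interferon-response genes. Interferons bind their receptors and activate transcription factors of the STAT and IRF families, which switch on target genes through 2 short DNA elements, the ISRE (interferon-stimulated response element) and the GAS (gamma-activated site).

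The SRF-PDGFRB libraries were set apart from the other fusions by a block of interferon-response genes. In the fit across all genes, 21 genes were called at an adjusted p under 0.05 (Benjamini-Hochberg adjustment of edgeR's quasi-likelihood p-values), which is 0.139% of those tested. All 21 were higher in SRF-PDGFRB, and none was called lower. Before adjustment, 448 genes (2.97%) had a p under 0.05, of which 287 were higher (1.91%) and 161 lower (1.07%). Of the 21, 12 were guanylate-binding proteins (GBPs) or immunity-related GTPases (IRGs), 4 were antiviral genes, 2 belonged to MHC class I antigen presentation and 1 was a nucleic acid sensor. The other 2 were Mpeg1, a perforin-like protein gene, and Olfr56, an olfactory receptor gene whose annotated span lies over 3 of the called GTPase genes. Both SRF-PDGFRB libraries lay above all 9 libraries of the other fusions in each of the 21 genes, and above all 6 pMSCV and SRF libraries. The count depended on single libraries and on the test. It was 13 without SRF-PDGFRB replicate 2, all 13 among the 21, and 54 without SRF-PDGFRB replicate 1, 16 of them among the 21. It was 6 with replicates 1 and 2 of each fusion only, 12 when SRF-RELA was left out of the mean, 33 with limma-voom and 46 with DESeq2 (34 higher and 12 lower). Gbp3 and Rsad2 were called in all 26 alternative settings. The calls of 6 genes held in 13 or fewer of them: Tgtp2 and Irgm2 in 13, Zbp1 in 12, Igtp in 11, Irgm1 in 9 and Olfr56 in 8 of the 25 that gave it a value. The remaining 13 were called in 17 to 25. The minimum of the table also bears on these genes. Without the SRF-PDGFRB libraries 15 of the 21 still reached it, as did 14994 of all 15062 genes. Gbp5, Iigp1, Mx1, Olfr56, Tgtp1 and Tgtp2 were in the table through the SRF-PDGFRB libraries, so that being high there was in part fixed by the minimum.

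**Figure D1:**
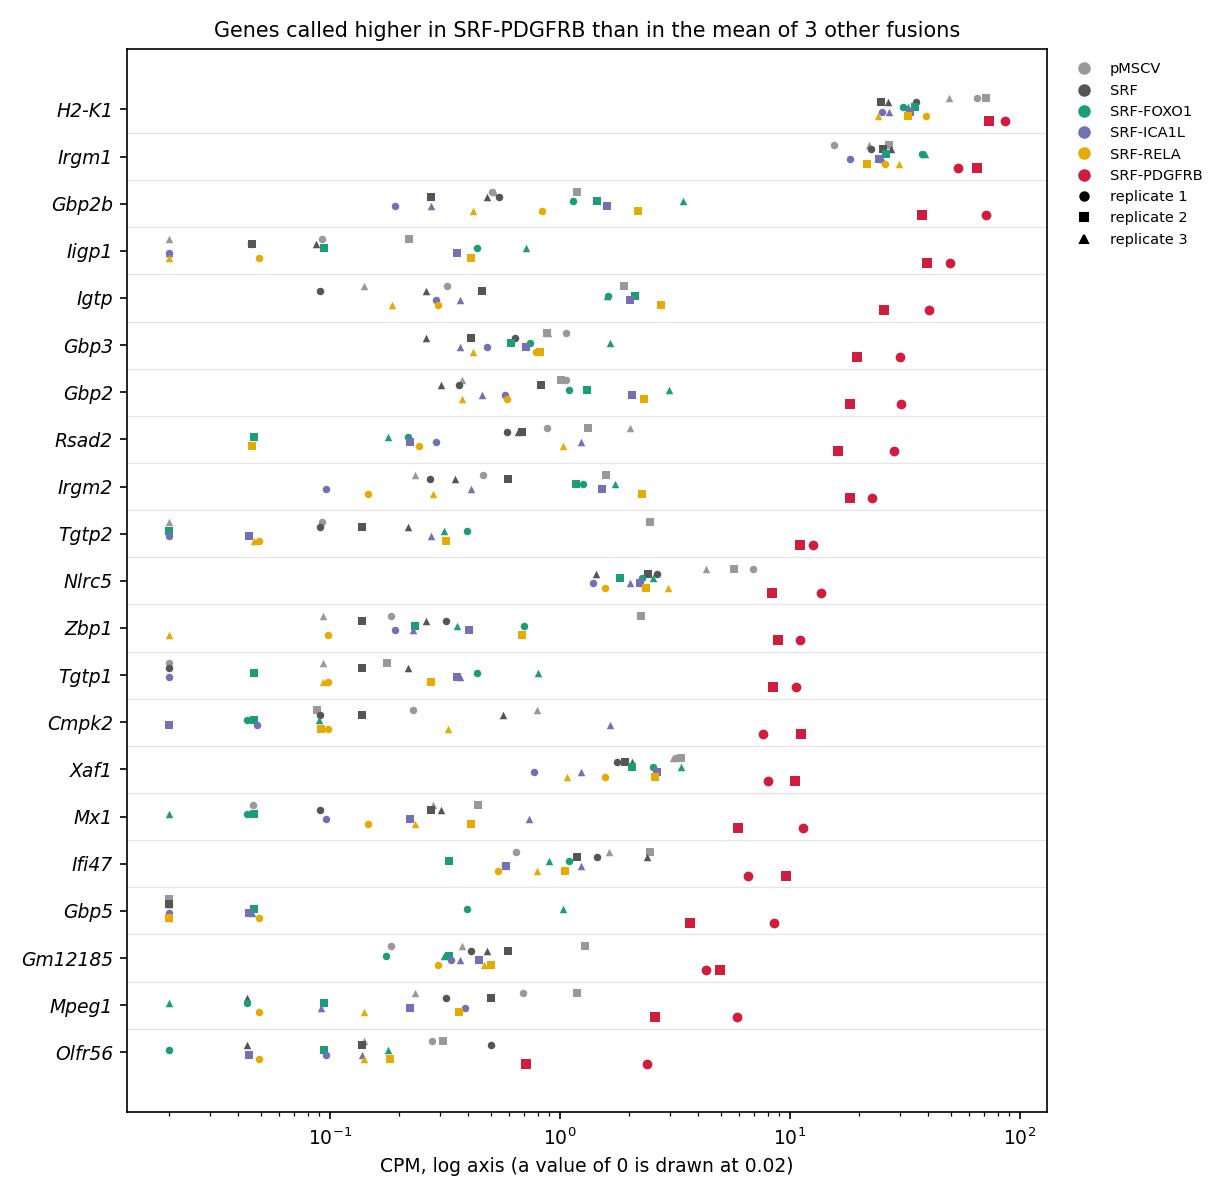
CPM (log axis) of the 21 called genes, 1 row a gene and 1 point a library, coloured by construct and shaped by replicate number. The red SRF-PDGFRB points lie to the right of all other points in every row, with the narrowest gap in H2-K1, where the pMSCV libraries reach 70.9 CPM against 73.1 CPM in the lower SRF-PDGFRB library.

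The upstream DNA of the called genes is shown because several GTPase genes share a compound element at the same spacing. RefSeq promoter windows on GRCm38.p6 were found for 17 of the 21 genes (not for Iigp1, Mx1, Nlrc5 and Zbp1), and the 250 bases before each annotated start were searched on both strands. The ISRE, searched as GAAA, any 2 bases and GAAA again, was present in 11 of the 17 genes (64.7%), against 3.12% of the 10631 tested genes that have a window. The GAS letters TTCNNNGAA were present in 6 of the 17 (35.3%), against 7.06% of those 10631 genes. Many of these genes are neighbours that arose by duplication, so their promoters are not independent of each other. The 17 also include Gbp5, Olfr56, Tgtp1 and Tgtp2, which were in the table through the SRF-PDGFRB libraries. The shares among the called genes therefore depend in part on the minimum of the table. In Igtp, Irgm2, Tgtp1, Tgtp2 and Gm12185 the GAS began 11 bases before the ISRE. The stretches below are 60 bases long, read 5′ to 3′ on the strand of the gene, with the matched letters in capitals. They lie at chr11:58199496-58199555 (Igtp, + strand), chr11:58214888-58214947 (Irgm2, + strand), chr11:48992289-48992348 (Tgtp1, - strand), chr11:49064248-49064307 (Tgtp2, - strand) and chr11:48927223-48927282 (Gm12185, - strand).
Igtp: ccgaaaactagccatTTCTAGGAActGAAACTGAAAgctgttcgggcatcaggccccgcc
Irgm2: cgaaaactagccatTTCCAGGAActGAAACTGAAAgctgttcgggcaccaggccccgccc
Tgtp1: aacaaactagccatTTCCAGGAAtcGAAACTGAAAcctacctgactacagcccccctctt
Tgtp2: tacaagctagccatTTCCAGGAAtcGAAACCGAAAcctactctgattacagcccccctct
Gm12185: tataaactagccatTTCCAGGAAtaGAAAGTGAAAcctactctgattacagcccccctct

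In 3 GBP genes of chromosome 3 and in Rsad2 the same search found the ISRE on the opposite strand, with no GAS in the window. These stretches lie at chr3:142620579-142620638 (Gbp2, + strand), chr3:142594685-142594744 (Gbp2b, + strand), chr3:142559980-142560039 (Gbp3, + strand) and chr12:26456538-26456597 (Rsad2, - strand). In Gbp3 the capitals cover 2 overlapping matches. The other called genes with an ISRE match were Gbp5 and Irgm1.
Gbp2: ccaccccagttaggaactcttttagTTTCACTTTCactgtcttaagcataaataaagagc
Gbp2b: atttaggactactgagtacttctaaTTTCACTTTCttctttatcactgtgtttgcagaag
Gbp3: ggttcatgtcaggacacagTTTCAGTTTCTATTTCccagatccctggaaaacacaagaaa
Rsad2: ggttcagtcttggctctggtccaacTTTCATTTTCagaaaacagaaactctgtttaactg

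GBPs are large GTPases that coat vacuoles holding bacteria or parasites, and IRGs are smaller GTPases that act on the same membranes. Of 24 genes listed in these families, 14 were among those tested. The list was chosen with earlier results known. The 14 do not include 9930111J21Rik1 and 9930111J21Rik2, tested neighbours of IRGs on chromosome 11 that were not called. The fit placed all 14 higher, and 12 of them were called. Both SRF-PDGFRB libraries lay above all 9 other fusion libraries in all 14, against 1.41% of all genes. In 4 of these (Gbp5, Iigp1, Tgtp1 and Tgtp2) the minimum of the table was met through the SRF-PDGFRB libraries. Of the 10 that met it without them, 8 were called and 10 lay above all 9, with a median log2 fold change of 4.34. The median log2 fold change of the 14 was 4.66, beside 0.02 over all genes tested. It was 3.97 against SRF-FOXO1, 5.14 against SRF-ICA1L and 5.06 against SRF-RELA, 3 contrasts that share the SRF-PDGFRB libraries.

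Gbp3 (ENSMUSG00000028268, chr3:142560026-142573209) had the smallest p of all genes. It stood at 30.0 CPM and 19.5 CPM in SRF-PDGFRB replicates 1 and 2. It was at 0.741, 0.610 and 1.65 CPM in the SRF-FOXO1 libraries, at 0.481, 0.714 and 0.366 CPM in SRF-ICA1L, and at 0.783, 0.821 and 0.420 CPM in SRF-RELA. The highest library of another fusion thus lay far below the lower SRF-PDGFRB library, and pMSCV and SRF lay between 0.261 and 1.06 CPM. The log2 fold change was 5.12 (edgeR, SE 0.33, adjusted p 4.91e-06), a 34.8-fold difference. Gbp3 was the only gene called against each other fusion by itself, with log2 fold changes of 4.62 against SRF-FOXO1, 5.55 against SRF-ICA1L and 5.19 against SRF-RELA.

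Its neighbours in the Gbp cluster of chromosome 3, a span of 144 kb (chr3:142493978-142638008) with 5 protein-coding genes, behaved alike. Gbp2b (formerly Gbp1) stood at 71.4 and 37.6 CPM in SRF-PDGFRB and at 0.193 to 3.43 CPM in the other fusions, with a log2 fold change of 5.53 (SE 0.56, adjusted p 3.37e-04). Gbp2 stood at 30.3 and 18.2 CPM against 0.373 to 2.99 CPM, with a log2 fold change of 4.25 (SE 0.56, adjusted p 0.00380). Gbp5, whose product takes part in inflammasome assembly, had 8.49 and 3.69 CPM. It had no count in any pMSCV or SRF library, and the SRF-ICA1L and SRF-RELA libraries had at most 3 counts. With these groups set to 3 counts a library Gbp5 was at least 28.0-fold higher than the mean of the other fusions (adjusted p 0.00806). SRF-FOXO1 stood at 0.392, 0.0469 and 1.03 CPM. Against SRF-FOXO1 alone the log2 fold change of Gbp5 was 3.62 and it was not called (edgeR, adjusted p 0.999). Gbp7, the fifth gene, was not called (15.6 and 11.7 CPM against 0.0481 to 4.68 CPM, log2 fold change 3.84, adjusted p 0.176). Gbp9, of another chromosome, was not called either (19.7 and 6.54 CPM against 0 to 3.92 CPM, log2 fold change 4.54, adjusted p 0.134). In both, the groups did not overlap, and both are given to complete the family.

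The IRGs ranged widely in fold change. Iigp1 (also Irga6), an IRG of the type that loads onto parasite vacuoles, stood at 49.5 and 39.4 CPM in SRF-PDGFRB. In the other fusions it ranged from 0 to 0.714 CPM, with a median of 0.0938 CPM, and in pMSCV and SRF it reached 0.220 CPM. Its log2 fold change of 7.76 (SE 0.76, adjusted p 3.37e-04) was the largest among the called genes. Among the regulatory IRGs, Igtp (Irgm3) stood at 40.3 and 25.6 CPM against 0.187 to 2.74 CPM (log2 fold change 4.78, SE 0.77, adjusted p 0.0184), and Irgm2 at 22.6 and 18.2 CPM against 0.0963 to 2.28 CPM (4.42, SE 0.72, adjusted p 0.0198). Irgm1 differed least. It was at 53.9 and 64.9 CPM in SRF-PDGFRB, at 18.2 to 38.8 CPM in the other fusions and at 15.5 to 27.5 CPM in pMSCV and SRF. It is thus expressed in every library, and its log2 fold change was 1.13 (SE 0.20, adjusted p 0.0336).

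The remaining listed IRGs lie together on chromosome 11. From Irgm1 to Olfr56 (chr11:48861968-49135387, 273 kb) 9 genes were tested and 6 were called: Irgm1, Gm12185, Tgtp1, Tgtp2, Ifi47 and Olfr56. The others tested there, 9930111J21Rik1, 9930111J21Rik2 and Psme2b, were not called and were not among the 14 listed GTPase genes. Tgtp1 stood at 10.7 and 8.45 CPM against 0 to 0.803 CPM, and Tgtp2 at 12.6 and 11 CPM against 0 to 0.392 CPM, with log2 fold changes of 5.20 and 6.22 (adjusted p 0.00740 and 0.0184). These 2 genes are near-identical copies, so the division of reads between them is uncertain. Ifi47 (Irgd) stood at 6.57 and 9.65 CPM against 0.328 to 1.24 CPM (log2 fold change 3.35, adjusted p 0.00306). Gm12185 stood at 4.32 and 4.98 CPM against 0.174 to 0.502 CPM (3.70, adjusted p 0.00105). Olfr56 had 2.39 and 0.712 CPM and at most 4 counts in any library of the other fusions. With SRF-ICA1L set to 3 counts a library and the other groups at their mean CPM it was 13.2-fold higher (edgeR, adjusted p 0.0336). Since Olfr56 had few counts in those other fusions too, this is not a firm lower bound. Its gene model (chr11:48978889-49135387) spans Tgtp1, Tgtp2 and Ifi47 and overlaps Gm12185, so reads cannot be assigned to it with certainty. The models of Gm12185 and Tgtp1 overlap on the - strand, so reads in the overlap cannot be assigned to either with certainty. The models of Igtp and Irgm2, in a second cluster of 23.2 kb (chr11:58199556-58222782), also overlap on 1 strand. Whether the counting used the strand is not given in the sources used here.

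Antiviral interferon-stimulated genes moved less evenly. Of 70 listed, 55 were tested and 4 were called higher (Rsad2, Mx1, Cmpk2 and Xaf1). In 20, both SRF-PDGFRB libraries lay above all 9 other fusion libraries (1.41% of all genes did). The fit placed 50 of 55 higher, 26 of them at an unadjusted p under 0.05, and the list's median log2 fold change was 0.73. Rsad2, the gene of viperin, which blocks viral RNA synthesis, stood at 28.2 and 16.2 CPM in SRF-PDGFRB. It was at 0.218, 0.0469 and 0.178 CPM in SRF-FOXO1, at 0.289, 0.223 and 1.24 CPM in SRF-ICA1L, and at 0.245, 0.0456 and 1.03 CPM in SRF-RELA. Its log2 fold change was 6.02 (SE 0.60, adjusted p 3.37e-04), and pMSCV and SRF lay between 0.591 and 2.01 CPM, so they too were above most libraries of the other fusions.

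Cmpk2, a nucleotide kinase gene that lies beside Rsad2 on chromosome 12 (chr12:26442746-26479837 holds both), stood at 7.62 and 11.2 CPM against 0 to 1.65 CPM. All SRF-FOXO1 libraries were at or under 3 counts for Cmpk2, so it was at least 39.3-fold higher (adjusted p 0.0184). Mx1, a dynamin-like GTPase that traps viral nucleocapsids, stood at 11.4 and 5.92 CPM against 0 to 0.732 CPM. With SRF-FOXO1 at the same floor it was at least 36.8-fold higher (adjusted p 3.37e-04). Xaf1, a pro-apoptotic partner of XIAP, stood at 8.04 and 10.5 CPM against 0.770 to 3.34 CPM, with a log2 fold change of 2.26 (SE 0.34, adjusted p 0.0114).

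Several well-known members of the antiviral list, named after their values were seen, were high in SRF-PDGFRB but variable in the other lines. Oasl2 stood at 20.8 and 13.9 CPM against 0.289 to 4.27 CPM (adjusted p 0.119), Ifit3b at 16.6 and 9.12 CPM against 0.0481 to 3.48 CPM (adjusted p 0.186), and Isg15, the ubiquitin-like modifier, at 12.3 and 8.94 CPM against 0.513 to 4.32 CPM (adjusted p 0.862). Ifit1, which binds viral RNA caps, was at 52.1 and 23.6 CPM against 1.77 to 23.3 CPM (adjusted p 0.616), so that its lower SRF-PDGFRB library barely cleared the highest of the others. SRF-PDGFRB replicate 1 exceeded all 9 other fusion libraries in 38 of the 55 genes (13.9% of all genes did) and replicate 2 in 24 (11.5% of all genes), while replicate 2 was the higher of the pair in 12 of the 55.

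Among genes of MHC class I antigen presentation, 25 of 31 listed were tested and 2 were called higher, H2-K1 and Nlrc5. The fit placed 20 of the 25 higher. Nlrc5 is the transactivator of class I genes. It stood at 13.7 and 8.32 CPM in SRF-PDGFRB and between 1.40 and 2.94 CPM in the other fusions, with a log2 fold change of 2.37 (SE 0.28, adjusted p 0.00144). H2-K1, a classical class I heavy chain, stood at 86.0 and 73.1 CPM against 24.2 to 39.2 CPM, with a log2 fold change of 1.36 (SE 0.17, adjusted p 0.00318), a 2.56-fold difference. The pMSCV libraries were also above the other fusions in both genes, at 49.2 to 70.9 CPM for H2-K1 and 4.30 to 6.87 CPM for Nlrc5. The list's median log2 fold change was 0.39, and 7 of 25 genes lay above all 9 other fusion libraries in both SRF-PDGFRB libraries, against 1.41% of all genes. Among these, the immunoproteasome subunit genes Psmb9 (6.47 and 2.94 CPM against 0 to 0.844 CPM, adjusted p 0.107) and Psmb10 (11.3 and 14.2 CPM against 5.59 to 8.26 CPM, adjusted p 0.0968) did not pass the test. B2m, the class I light chain gene, was at 464 and 445 CPM, within the range of 233 to 457 CPM of the other fusions in its lower library. The choice of these 3 genes was made with their values known.

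**Figure D2:**
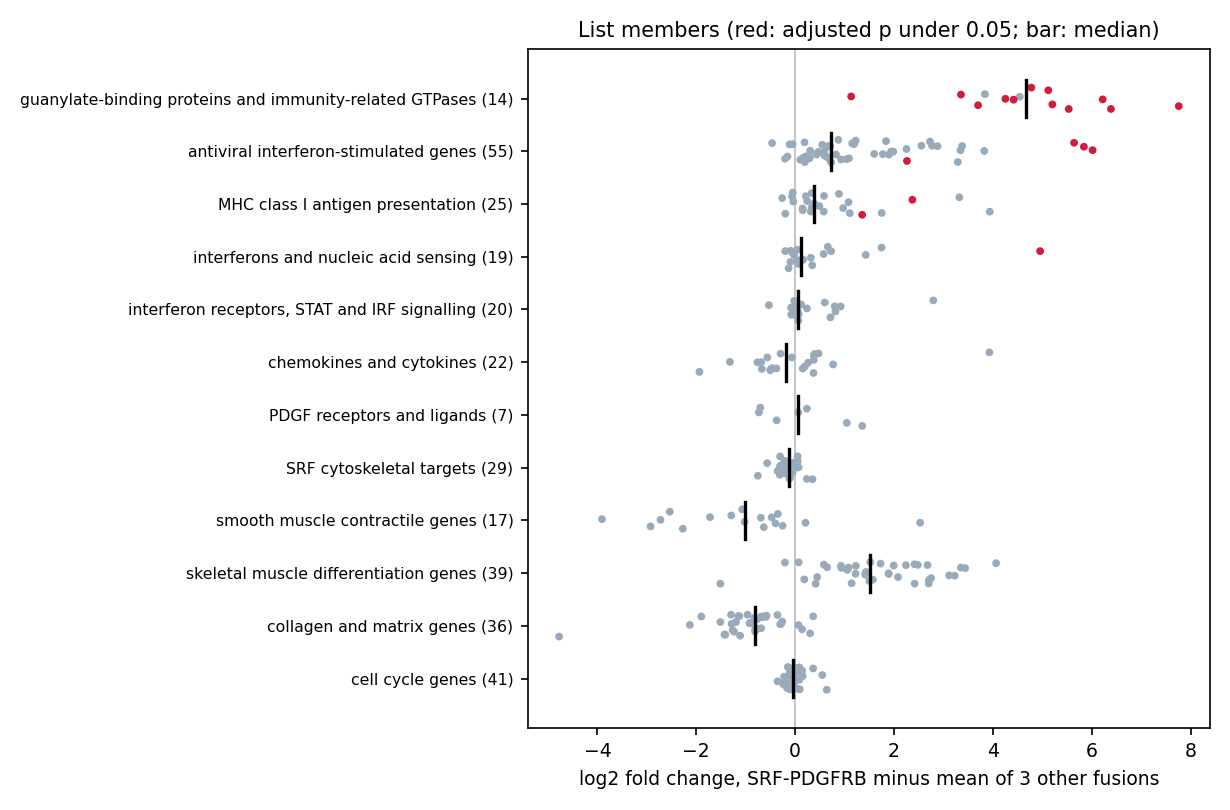
Log2 fold change of SRF-PDGFRB against the mean of the other 3 fusions for the tested members of 12 gene lists (number tested in brackets), 1 point a gene, red where the adjusted p was under 0.05 and with a bar at the median. Red points are confined to the 4 interferon-related lists at the top, and the medians run from 4.66 for the GTPase families to -1.02 for smooth muscle contractile genes.

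No component of interferon signalling itself was called. Of 22 genes for interferon receptors, STATs, IRFs and their regulators, 20 were tested, 3 of them were at an unadjusted p under 0.05, and the median log2 fold change was 0.07. Both SRF-PDGFRB libraries lay above all 9 others for 3 of the 20 (1.41% of all genes), among which were Irf7 and Irf9. Irf7, an amplifier of type I interferon production, stood at 12.6 and 5.74 CPM against 0.144 to 2.96 CPM (log2 fold change 2.79, adjusted p 0.345). Irf9, the DNA-binding partner of the STATs in the complex that binds the ISRE, stood at 17 and 16.4 CPM against 7.74 to 15.7 CPM (0.60, adjusted p 1), and Stat2 at 38.8 and 39.3 CPM against 16.8 to 42.3 CPM (0.72, adjusted p 0.918).

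Among 24 genes for interferons and nucleic acid sensors, 19 were tested and Zbp1 alone was called. The interferon genes Ifnb1, Ifna4, Ifng and Ifnl3 were not analysed here. Zbp1, a sensor of left-handed double-stranded nucleic acid that can start necroptosis, stood at 11 and 8.85 CPM in SRF-PDGFRB and at 0 to 0.697 CPM in the other fusions, with a log2 fold change of 4.95 (SE 0.79, adjusted p 0.0184). One pMSCV library reached 2.25 CPM. The RNA sensor genes Dhx58 (3.21 and 3.25 CPM against 0.626 to 1.43 CPM, adjusted p 0.177) and Ifih1 (9.64 and 2.76 CPM against 0.933 to 4.88 CPM, adjusted p 1), named after their values were seen, were not called. Of 29 chemokine and cytokine genes, 22 were tested, none was called, and the median log2 fold change was -0.18, which ran from -0.48 to 0.18 when 1 library was left out. Cxcl10, a chemokine induced by interferon gamma, had the largest fold change of them, at 18.2 and 4.63 CPM against 0.0892 to 1.96 CPM (log2 fold change 3.93, SE 0.81, adjusted p 0.134).

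Mpeg1 stood at 5.88 and 2.58 CPM, and at 0 to 0.385 CPM in the other fusions. With SRF-FOXO1 at the floor of 3 counts it was at least 23.2-fold higher (adjusted p 0.00392). Since Mpeg1 is known from macrophages, markers of other cell types were read beside it. Of 14 leukocyte markers, 4 were tested (Cd68, Csf1r, Lyz2 and Cd14), none was called, and none lay above all 9 other fusion libraries in both SRF-PDGFRB libraries. Their summed level was 30.2 and 15.7 CPM in SRF-PDGFRB, 28.3 to 35 CPM in SRF-FOXO1, 15.4 to 28.1 CPM in SRF-ICA1L, 17.4 to 32.1 CPM in SRF-RELA and 15.8 to 23.7 CPM in pMSCV and SRF. SRF-PDGFRB replicate 1 lay above all 9 other fusion libraries in 2 of the 4 markers. Replicate 2 lay below all 9 in 2 of them, Csf1r at 0.0890 CPM and Lyz2 at 0.178 CPM. Of 7 endothelial markers 2 were tested, at a summed level of 0.138 and 0.133 CPM in SRF-PDGFRB, with Cdh5 at 0 in both. In such bulk libraries fewer cells of a type and less RNA per cell cannot be told apart.

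The 2 SRF-PDGFRB libraries shared the interferon-response genes and were far apart in skeletal muscle genes. Across 39 tested skeletal muscle differentiation genes (of 47 listed), replicate 1 was below all 9 other fusion libraries and replicate 2 above all 9 in 21 genes, against 2.61% of all genes. Replicate 2 was the higher in 37 of 39, by a median of 4.77 on the log2 scale. In the GTPase list, both replicates were above all 9 in 14 of 14 genes, and replicate 2 was the higher in 3. Of the 14, 4 met the table's minimum through the SRF-PDGFRB libraries, so that being high there was in part fixed. The other 10 were also above all 9 in both replicates. The mean log2 CPM of the GTPase list was 4.33 and 3.88 in SRF-PDGFRB replicates 1 and 2, and from -1.72 to 0.89 in the other fusions. The mean log2 CPM of the muscle list was 0.41 and 5.01, and from 1.07 to 3.30 in the other fusions. The 2 libraries thus bracketed the other fusions in muscle genes and lay on 1 side of them in GTPase genes. Large differences were not confined to muscle genes: 1181 genes differed at least 4-fold between the 2 SRF-PDGFRB libraries, against 160 to 1034 in the other pairs of libraries of 1 group. The median absolute log2 difference over all genes was 0.43 in this pair, within the range of 0.23 to 0.57 of the other pairs.

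**Figure D3:**
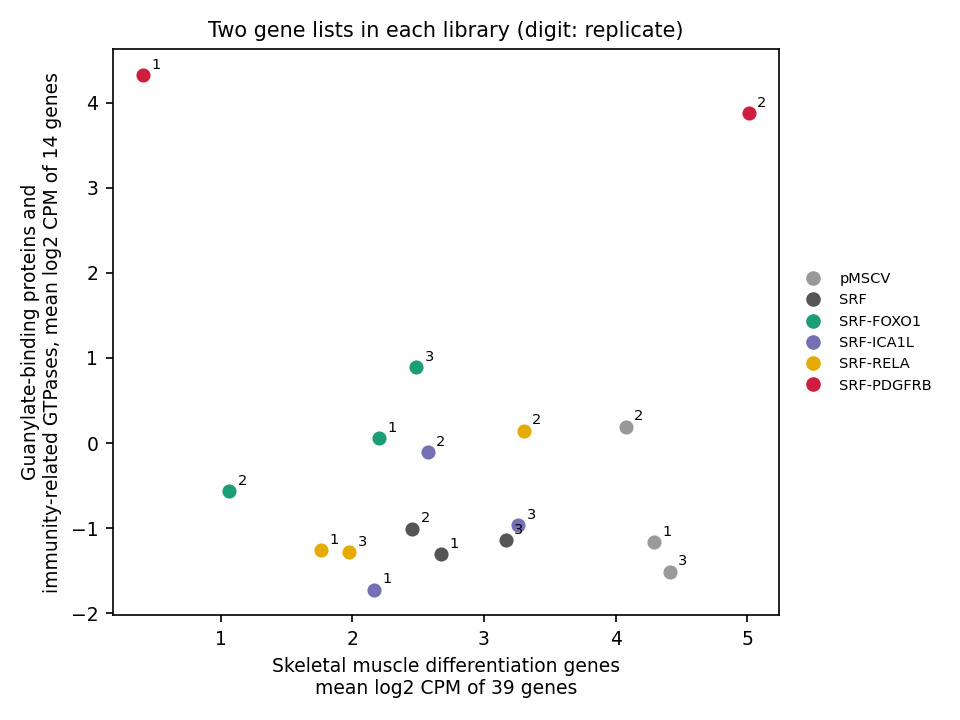
Mean log2 CPM of the 14 GTPase genes (vertical axis) against that of the 39 skeletal muscle genes (horizontal axis), 1 point a library, coloured by construct with its replicate number beside it. The 2 SRF-PDGFRB points lie at the far left and far right, at 0.41 and 5.01, and both stand above 3.8 on the vertical axis, where no other library reaches 1. Of the 14 GTPase genes, 4 met the table's minimum through the SRF-PDGFRB libraries.

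Among myogenic regulators, Myog (myogenin), which starts terminal differentiation, stood at 0.230 CPM in SRF-PDGFRB replicate 1 and 85.5 CPM in replicate 2. The other fusions ranged from 0.234 to 7.37 CPM, and pMSCV and SRF from 1.97 to 22.4 CPM, so replicate 2 was above every other library and replicate 1 at the bottom, with 5 counts, as many as SRF-FOXO1 replicate 2. Myod1, the master regulator of the lineage, stood at 5.69 and 111 CPM against 6.66 to 64.4 CPM. Among structural genes, Des (desmin) stood at 44.5 and 892 CPM against 88.5 to 455 CPM, Myh3 (embryonic myosin heavy chain) at 0.643 and 146 CPM against 0.938 to 15.8 CPM, and Tnnc1 (troponin C) at 6.15 and 54.3 CPM against 4.38 to 12.5 CPM. Among surface proteins, Cdh15 (M-cadherin) stood at 12.9 and 412 CPM against 22.3 to 218 CPM, and Itga7 (integrin alpha 7) at 163 and 535 CPM against 95.6 to 293 CPM. Myod1, Des and Cdh15 were chosen with their values known.

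No muscle gene was called. The fit placed 37 of 39 higher, 20 of them at an unadjusted p under 0.05, with a median log2 fold change of 1.52. That sign rests on replicate 2: without it the median was -2.46, and Myog went from 4.07 to -3.44. All 8 myoblast and muscle markers had counts in both libraries, though 1 was at or under 3 counts in replicate 1. Their summed level was 247 CPM in replicate 1 and 2480 CPM in replicate 2. The other fusions ranged from 264 to 1268 CPM and pMSCV and SRF from 828 to 2170 CPM. The markers of the labelled cell type were thus present in both libraries, at levels further apart than in any other line. In replicate 1 they lay below all 9 other fusion libraries in 7 of 8 genes. They lay below all 6 pMSCV and SRF libraries in 8 of 8. The summed level of the 21 called genes was 515 CPM in replicate 1 and 399 CPM in replicate 2, against 49.2 to 93.6 CPM in the other fusions, but a gene had to be high in both libraries to be called. The part of the muscle difference in the results above was not tested.

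**Figure D4:**
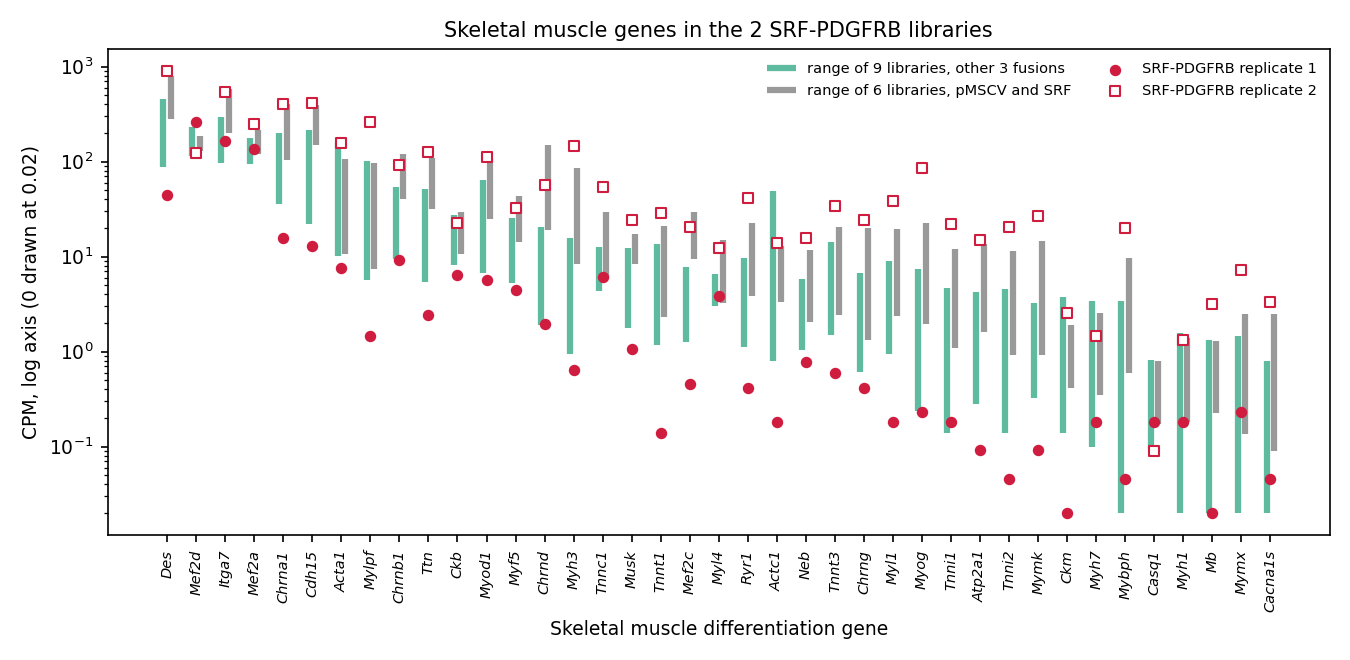
CPM (log axis) of the 39 tested skeletal muscle genes in SRF-PDGFRB replicate 1 (filled circles) and replicate 2 (open squares), beside the range of the 9 libraries of the other fusions (green bars) and of the 6 pMSCV and SRF libraries (grey bars). Replicate 2 is the higher in 37 of 39 genes, and in 21 genes the 2 points lie beyond opposite ends of the green bar.

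No gene was called lower in SRF-PDGFRB in the edgeR fit of all 17 libraries with group only. DESeq2 called 12 lower, and 161 genes were lower at an unadjusted p under 0.05. Among the genes with the smallest p in this direction whose groups did not overlap were Pappa, Micall2, Smap2, Gask1b, Cav1, Podnl1, Col12a1, Col5a1 and Unc5b. Pappa, a protease of IGF-binding proteins that releases insulin-like growth factor, stood at 0.184 and 0.133 CPM in SRF-PDGFRB. It was at 7.80, 8.25 and 3.66 CPM in SRF-FOXO1, at 27.3, 12 and 3.62 CPM in SRF-ICA1L, and at 19.0, 23.9 and 1.07 CPM in SRF-RELA. All 15 other libraries of the series lay above both SRF-PDGFRB libraries, since pMSCV and SRF ran from 1.07 to 6.17 CPM. The log2 fold change was -6.08 (SE 1.29, adjusted p 0.163). It was called in 4 of the 26 alternatives, among them without SRF-RELA replicate 3, its lowest library outside SRF-PDGFRB (adjusted p 0.0154), with replicates 1 and 2 only (0.0163) and with DESeq2 (1.06e-07).

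Most of the other genes in this group differed by less, without overlap. Gask1b, a secreted glycoprotein kinase relative, stood at 2.66 and 2.31 CPM against 4.59 to 8.24 CPM (log2 fold change -1.25, adjusted p 0.535). Podnl1, a leucine-rich matrix protein, stood at 35.1 and 28.5 CPM against 42.7 to 95.7 CPM (-0.96, adjusted p 0.570). The fitted log2 fold change was -0.63 for Micall2, an adaptor in the transport of junction proteins, and -0.50 for Smap2, an Arf GTPase-activating protein. Unc5b, a netrin receptor, stood at 111 and 125 CPM against 141 to 177 CPM (-0.43, adjusted p 0.747). The pMSCV and SRF libraries lay above both SRF-PDGFRB libraries for Pappa, Gask1b, Micall2 and Cav1, and overlapped them for the other 5 genes.

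Collagen and other matrix genes were placed lower in 32 of 36 tested (40 listed), with a median log2 fold change of -0.82 and none called. Against the lines without a fusion the list's median was nearer to none, at -0.44 against pMSCV and -0.13 against SRF. Both SRF-PDGFRB libraries lay below all 9 other fusion libraries in 6 of the 36, against 1.0% of all genes. Col12a1, a collagen that links fibrils, stood at 187 and 231 CPM against 310 to 1300 CPM (log2 fold change -1.41, adjusted p 0.628), and Col5a1, which nucleates collagen fibrils, at 123 and 305 CPM against 400 to 693 CPM (-1.26, adjusted p 0.628). Postn (periostin) stood at 0.138 and 2.09 CPM against 9.65 to 73.3 CPM (-4.77, adjusted p 0.851). For Col12a1 the pMSCV and SRF libraries, at 81.8 to 268 CPM, were also below the other fusions, and for Postn they ran from 0.692 to 36.7 CPM. Replicate 1 was below all 9 in 28 of the 36 matrix genes (11.3% of all genes) and replicate 2 in 10 (10.4% of all genes).

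Smooth muscle contractile genes, several of which are targets of SRF with its cofactor myocardin, were placed lower in 15 of 17 tested, with a median of -1.02 and none called. The list's median was 0.01 against pMSCV and -0.27 against SRF. Cnn1 (calponin) stood at 1.33 and 3.47 CPM against 5.75 to 125 CPM (log2 fold change -3.91, SE 1.41), and Lmod1 (leiomodin) at 4.22 and 3.47 CPM against 10.4 to 57.4 CPM (-2.72, SE 0.92), both with an adjusted p of 1. Here too pMSCV and SRF reached down to 0.415 CPM for Cnn1 and 0.231 CPM for Lmod1, so the SRF-PDGFRB libraries were within their range. The broader SRF cytoskeletal targets (29 of 29 tested) had a median of -0.12, with 22 placed lower, none called and none beyond all 9 libraries. Cav1 (caveolin), the coat protein of caveolae, is not on that cytoskeletal list. It stood at 141 and 249 CPM against 300.0 to 704 CPM (-1.07, adjusted p 0.550), below pMSCV and SRF (270.4 to 465 CPM) as well.

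**Figure D5:**
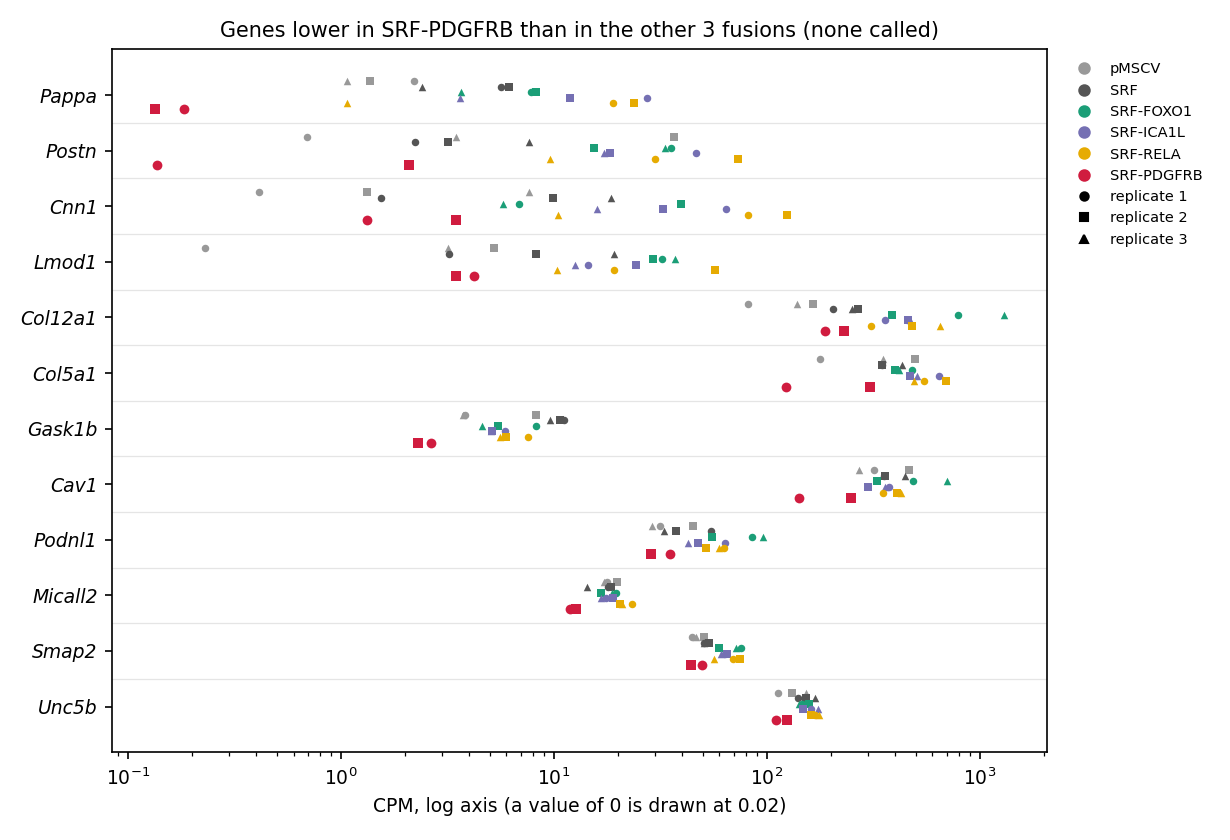
CPM (log axis) of 12 genes that were lower in SRF-PDGFRB, 1 row a gene and 1 point a library, ordered by fold change. The red points lie to the left of the 9 points of the other fusions in each row, while the grey points of pMSCV and SRF all lie to the right of both red points in 4 rows, Pappa, Gask1b, Micall2 and Cav1. None of these genes was called.

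The PDGF and SRF genes themselves were not called. Whether reads of a construct were counted towards the mouse gene was not tested, so these values do not check the labels. Srf stood at 70.5 and 81.4 CPM in SRF-PDGFRB against 71.8 to 279 CPM in the other fusions (log2 fold change -0.75, SE 0.35, adjusted p 1), with the SRF libraries at 678 to 1673 CPM. Pdgfrb stood at 247 and 196 CPM against 238 to 594 CPM (-0.71, SE 0.42, adjusted p 1). Foxo1 (-0.03), Ica1l (-0.05) and Rela (0.17) had fitted differences smaller than their SE. All 7 PDGF receptor and ligand genes were tested and none was called. Pdgfd (0.551 and 16.0 CPM) and Pdgfb (0.0918 and 8.41 CPM) were low in replicate 1 and high in replicate 2, as the muscle genes were. Of 37 ERK feedback and immediate early genes, which respond to receptor tyrosine kinase signalling, none was called, none lay beyond all 9 libraries in both replicates, and the median was -0.01. The 2 libraries were far apart here as well, at a summed 10422 and 2826 CPM, and the median ran from -0.74 without SRF-PDGFRB replicate 1 to 0.40 without SRF-FOXO1 replicate 2. Lists of NF-kappaB subunits and targets (median 0.19 over 22 genes), FOXO genes and targets (0.08 over 25) and cell cycle genes (-0.05 over 41) had no called gene and no gene beyond all 9. Their medians, like that of the PDGF genes (0.06), changed sign when 1 SRF-PDGFRB library was left out.

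Cholesterol synthesis genes were placed lower in 20 of 20, with a median of -0.81, but none was called, none was at an unadjusted p under 0.05, and none lay below all 9 libraries in both replicates. The 13 mitochondrially encoded mRNAs had a median of -0.18, complement genes -0.38 over 13 and MHC class II genes 0.90 over 3, with none called. The MHC class II median was -1.07 without SRF-PDGFRB replicate 1 and 1.83 without replicate 2. Among markers of other cell types, 4 of 7 for pericytes or smooth muscle were tested, at a summed level of 2051 and 1674 CPM in SRF-PDGFRB, 1967 to 3373 CPM in the other fusions and 308 to 4000.2 CPM in pMSCV and SRF. Adipocyte markers (3 of 5 tested) summed to 52.0 and 31.5 CPM against 27.6 to 57.4 CPM, neural markers (3 of 5) to 4.45 and 18.7 CPM against 3.52 to 36.9 CPM, and epithelial markers (2 of 6) to 2.20 and 21.2 CPM against 0.981 to 23.3 CPM. None of these markers was called.

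Set against 1 fusion at a time, SRF-PDGFRB differed in 4 genes from SRF-FOXO1 (0.0266% of genes), in 5 from SRF-ICA1L (0.0332%) and in 1 from SRF-RELA (0.00664%), all of them higher and all among the 21. The genes were Gbp3, Rsad2, Mx1 and Gm12185 against SRF-FOXO1, Gbp3, Iigp1, Gbp2b, Nlrc5 and H2-K1 against SRF-ICA1L, and Gbp3 against SRF-RELA. That a gene was called against 1 fusion and not another does not show that the fusions differ, which was not tested. For Iigp1, which was called against SRF-ICA1L alone, the log2 fold change was 6.72 against SRF-FOXO1, 8.45 against SRF-ICA1L and 8.11 against SRF-RELA. Against the lines without a fusion, 3 genes were called against pMSCV (0.0199%) and 8 against SRF (0.0531%).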

How the data were processed

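The values are raw counts per gene that the authors deposited, in 1 table for 17 libraries. Per the submitters' processing notes, FastQC 0.11.8, Trimmomatic 0.39, HISAT2, featureCounts and Subread 2.0.0 were used with build GRCm38. The annotation and the strand setting are not given in the sources used here. Of 1531 genes without a symbol, 1519 received one by identifier, and 15050 of 15062 genes were placed on GENCODE M21 (GRCm38). Promoters came from RefSeq (GRCm38.p6).

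Counts were scaled by TMM and tested with edgeR 4.0.16 (quasi-likelihood, robust; limma 3.58.1, R 4.3.3) in 1 fit of all 17 libraries with group only. The contrast was SRF-PDGFRB minus the mean coefficient of the other 3 fusions. P-values were adjusted by Benjamini-Hochberg over 15062 genes, with calls under 0.05. SE is the log2 fold change over the square root of F. CPM uses TMM-scaled totals; mean log2 CPM uses a prior count of 2. A group at or under 3 counts in every library was set to 3 counts a library for a lower bound. All other groups entered that bound at their mean CPM, so it does not cover their own spread. Genes with few counts in a group carry counting error beside the spread between libraries. A count of how many genes meet the table's minimum without the SRF-PDGFRB libraries was added after seeing the data. Libraries of 1 group differed by 65.8 to 157 in chi-square per degree of freedom among the 4 fusions, so none was a duplicate. The fit was tested on simulated data.

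Members, gene lists and tests were chosen with earlier results of these data known. Named were Srf and the partner genes, up to 15 called genes in each direction without overlap and with at least 50 counts (otherwise up to 10 by p), and the called members, or up to 4 by p, of each of 19 lists. Alternatives (26) varied the scaling, filter, libraries, replicate block and tool (limma-voom, DESeq2 1.42.0). A few genes that this rule names are not reported here.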

Additional observations from a re-analysis of the deposited data

How the results depend on the processing

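The 21 genes called against the mean of the other fusions became 7 with a replicate block in the 11 fusion libraries, 6 with replicates 1 and 2 only, 3 with those and the block, 12 without SRF-RELA in the mean, 33 with limma-voom and 46 with DESeq2, and ran from 13 to 54 when 1 library was left out. A lone SRF-PDGFRB library is then assumed to vary like the other groups. With the block in all 17 libraries the count was 26. Numbers went together in part of the series: same-numbered SRF-ICA1L and SRF-RELA libraries deviated from their group means with correlations of 0.69, 0.79 and 0.76, and SRF-FOXO1 and SRF-ICA1L with 0.071, 0.10 and 0.50. They did not for SRF-PDGFRB, whose replicates 1 and 2 correlated with same-numbered SRF-FOXO1 libraries at -0.09 and -0.51, SRF-ICA1L at 0.23 and -0.39 and SRF-RELA at 0.35 and -0.20. Its replicate 2 correlated with replicate 3 of these at 0.44, 0.64 and 0.50. With only 2 SRF-PDGFRB libraries, their deviations from the group mean are exact opposites. Each correlation of replicate 2 is therefore that of replicate 1 with the sign turned, and the 2 are not separate evidence. Whether its number marks the same culture as in the other lines is not known, which limits what the block and the counts with replicates 1 and 2 mean. For single fusions, the count against SRF-FOXO1 went from 4 to 2 with the fusion libraries alone and 27 with DESeq2. Against SRF-ICA1L it went from 5 to 1 with the fusion libraries alone, 20 with the block and 27 with DESeq2, and against SRF-RELA from 1 to 12 with the block and 30 with DESeq2. The causes were not tested. All 21 called genes kept their sign in all settings run. That was largely fixed beforehand, since both SRF-PDGFRB libraries lay above all 9 other fusion libraries in each of them.

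Signs turned in weak or replicate-split genes. Leaving out 1 library, log2 fold changes ran from -2.31 to 2.67 (Cdh15), -2.17 to 2.14 (Des), -0.016 to 1.68 (Itga7), -3.59 to 4.21 (Myh3), -1.78 to 2.48 (Myod1), -3.44 to 5.05 (Myog), -0.41 to 2.72 (Tnnc1), -4.40 to 2.01 (Pdgfb), -2.54 to 2.29 (Pdgfd), -0.25 to 0.48 (Rela), -0.27 to 0.17 (Foxo1) and -0.73 to 0.40 (Ica1l). Pdgfb was -0.84 with limma-voom. Foxo1 was 0.029 with the block in 17 libraries, 0.081 with it in 11, 0.027 with replicates 1 and 2, 0.078 with those and the block and 0.081 without SRF-FOXO1 in the mean. Ica1l was 0.042 with the block in 17 libraries and 0.23 without SRF-FOXO1 in the mean. Depth was not varied. Several called genes have 0 to 4 counts in many libraries of the other fusions, so their fold changes carry counting error beside the spread between 2 or 3 libraries.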
